A study of Mus musculus with 12 samples.

Results

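The urea cycle and ammonia genes described here are 9 protein-coding genes that carry nitrogen from ammonia and amino acids into urea: Nags, Cps1, Otc, Ass1, Asl and Arg1, the mitochondrial carriers Slc25a15 and Slc25a13, and the glutaminase Gls2. They were found by gene symbol among the 23420 rows of the liver count tables of Siah2 KO and wild type mice, and each of the 9 had 1 row. Of these, 8 passed edgeR's filter on low counts in each comparison, and Ass1 did not.

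The urea cycle disposes of ammonia, which is toxic to the brain, and the complete cycle runs in hepatocytes, with higher enzyme levels around the portal vein than around the central vein. In the mitochondrion, Nags makes N-acetylglutamate, which Cps1 needs in order to turn ammonia and bicarbonate into carbamoyl phosphate, and Otc joins that product to ornithine to give citrulline. In the cytosol, Ass1 joins citrulline to aspartate, Asl releases arginine and fumarate, and Arg1 splits arginine into urea and ornithine. Slc25a15 returns ornithine to the mitochondrion in exchange for citrulline, Slc25a13 exports the aspartate that Ass1 consumes, and Gls2 frees ammonia from glutamine in periportal hepatocytes.

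Livers were taken at ZT10, which is 10 hours after lights on, from C57BL/6 mice about 20 weeks old, 3 in each of 4 groups. Wild type females were mice 1089, 1090 and 1091, Siah2 KO (Siah2-/-) females were 1070, 1104 and 1105, wild type males were 1055, 1086 and 1087, and Siah2 KO males were 1075, 1076 and 1081. Siah2 encodes a ubiquitin ligase, and its deletion is constitutive in every cell. Wild type and KO mice were bred as separate but related lines after heterozygotes had been intercrossed, so line and genotype cannot be told apart. According to the labels, equal RNA of 3 mice went into a pool, whereas the paper and the series text speak of individual livers at this time point, and each column was taken as 1 mouse. If they were pools, p-values would measure the spread between pools.

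RNA was counted with QuantSeq, in which a transcript gives reads near its 3′ end. CPM (reads of a gene over the reads of its library, after TMM scaling in edgeR) therefore do not grow with transcript length. Genes are set side by side here by CPM, and whether each 3′ end is counted equally well was not tested. Totals lay between 1293688 and 4056144 counts per mouse. The 9 genes together took between 0.176% and 0.373% of the counts. Siah2 itself was counted at 11.5 to 17.0 CPM in wild type females, 9.63 to 12.5 CPM in KO females, 16.8 to 27.1 CPM in wild type males and 9.42 to 17.4 CPM in KO males, and no source used here says whether the deleted part includes the counted 3′ end. Xist (66.25 to 113 CPM in females, at most 0.868 in males) and the Y-linked Ddx3y (at most 0.722 CPM in females, 55.05 to 71.6 in males) matched the labelled sexes. All 6 hepatocyte markers were present in each liver, at 33880 to 52170 CPM in sum. Wild type female 1091 stood apart. It held the lowest of the 12 values for 21.6% of 9806 genes and the highest for 18.4%, against 5.02% to 10.7% in the other 11 mice. The main results that include it are therefore also given without it. Levels over the 12 mice, profiles from mouse to mouse and some single genes are given only with it.

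In these tables Ass1 was close to absent. It had 1, 7 and 0 counts in wild type females 1089, 1090 and 1091, and 2, 7 and 0 counts in KO females 1070, 1104 and 1105. It had 3, 0 and 4 counts in wild type males 1055, 1086 and 1087, and 1, 0 and 7 counts in KO males 1075, 1076 and 1081. These 32 counts in all compare with 6584 for Cps1 and 9260 for Otc. The highest of the 12 values was 2.58 CPM, and the 4 libraries with 0 counts allow up to between 0.956 and 1.81 CPM, counting error only. The groups overlapped, and at these counts no fold change is given, although DESeq2, which ran without that filter, tested the gene in males and with both sexes combined and did not call it (adjusted p of 0.9999 and 0.994). Ass1 is otherwise known as an abundant transcript of hepatocytes.

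The 3′ end of Ass1, the stretch that QuantSeq reads, has a near-identical copy elsewhere in the mouse genome. Of the last 500 bases of the Ass1 transcript in GENCODE M1, 489 of 495 aligned bases, or 98.8%, were identical to the pseudogene Gm5424 on chromosome 10 of NCBIM37, against 304 of 304 within the last exon of Ass1 itself on chromosome 2. Short matches were not kept, and among the longer ones the end of each of the other 8 transcripts matched only its own locus. The 245 coding bases within this end held 2 bases that differ in Gm5424. The rest of the end, which is untranslated and lies nearer the 3′ end, is not printed. The last 150 coding bases of Ass1 (transcript bases 1292 to 1441, 5′ to 3′) follow, with capitals for the 1 base at which Gm5424 differs.
Ass1: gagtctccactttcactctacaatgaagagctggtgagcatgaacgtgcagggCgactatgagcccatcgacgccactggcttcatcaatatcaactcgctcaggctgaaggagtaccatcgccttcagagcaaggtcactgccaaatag

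Gm5424 had 0 counts in all 12 libraries, and its row stands between those of Ass1 and Fubp3, a chromosome 2 gene, although RefSeq places it on chromosome 10 (GRCm38.p6, 62071022 to 62072571). The globin genes Hba-a1, Hba-a2, Hbb-b1 and Hbb-b2 were also at 0 in all 12 libraries, and the erythroid gene Alas2 had between 8.47 and 154 CPM. Whether these genes have near-identical copies was not measured, and the reason for the globin values was not tested. No source used here gives the rule by which reads that match several places were counted, and its part in the Ass1 values was not tested.

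The 9 genes lie on 8 chromosomes in GRCm38.p6 (RefSeq), the release of mm10, which is the build in the submitters' processing notes. Cps1 is at chr1:67122426-67231267, Otc at chrX:10252230-10321024, Ass1 at chr2:31470270-31520670, Asl at chr5:130011258-130024381 and Arg1 at chr10:24915207-24927470. Nags is at chr11:102145513-102149528, Gls2 at chr10:128194635-128210004, Slc25a15 at chr8:22375550-22398621 and Slc25a13 at chr6:6041218-6217304. Gls2 and Arg1 share a chromosome but are far apart on it. The last bases of Gls2 overlap Spryd4 (chr10:128209908-128211794), which was counted at 5.73 to 15.7 CPM, well under the lowest Gls2 value of 94.5 CPM.

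The CPM differed far more between genes than between groups, and the order given here is one of CPM. Arg1, the enzyme that releases urea, was highest, with a mean of 1226 CPM ± 389.5 (SD, n = 12), and its lowest mouse lay above the highest mouse of any other member. The ornithine carrier Slc25a15 followed at 444 ± 79.8 CPM, and Otc at 277 ± 46.7 CPM. Each exceeded the next gene in order in 12 of 12 mice, although their ranges overlapped. Slc25a13 (207 ± 46.1 CPM) and Cps1 (202 ± 64.6 CPM) did not separate, and the first was higher in 4 of 12 mice. Asl (159.7 ± 54.5 CPM) and Gls2 (148 ± 52.7 CPM) did not separate either, with Asl higher in 6 of 12 mice. Nags, which makes the activator of Cps1, was at 44.8 ± 10.5 CPM and lay below each of these in 12 of 12 mice, except below Cps1 in 11 of 12, since wild type female 1091 had 75.8 CPM of Nags and 74.2 CPM of Cps1. Among all genes, Arg1 ranked 92 by mean CPM and Nags ranked 2998.

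**Figure D1:**
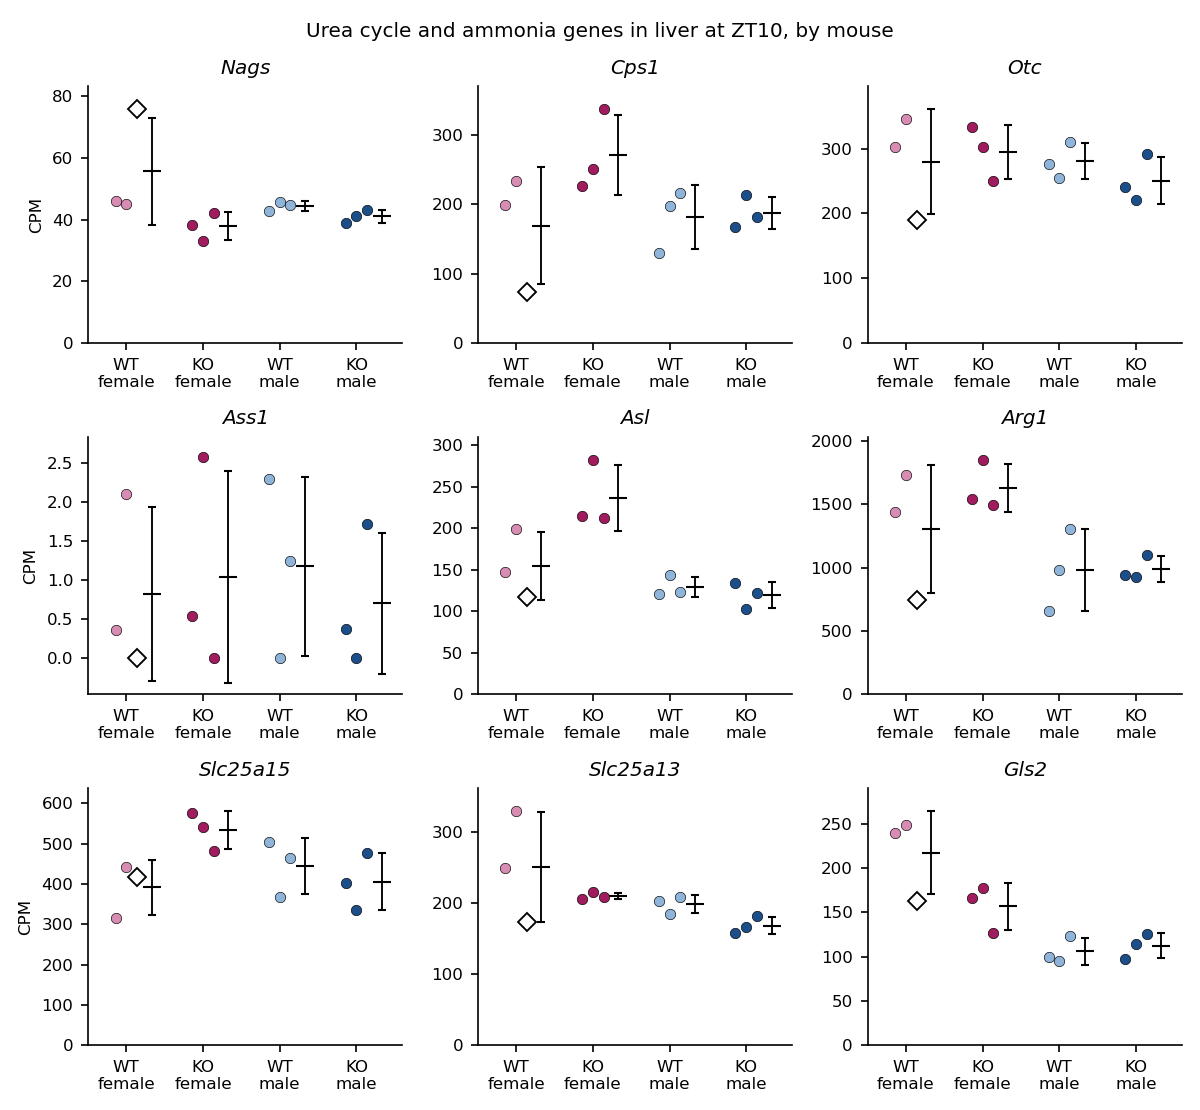
CPM of each of the 9 genes by mouse (y axis, linear, own scale per gene) in the 4 groups (x axis). Points are mice, the open diamond is wild type female 1091, and the bar to the right of each group is the mean with its SD (n = 3). The 3 Asl and Slc25a15 values of KO females lie above those of wild type females, Gls2 is higher in wild type females than in wild type males, and Ass1 does not exceed 2.58 CPM.

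The first comparison asked whether loss of SIAH2 changed these genes in females. None of the 8 tested genes was called by edgeR's quasi-likelihood test at an adjusted p under 0.05, in a comparison where 0% of 9465 genes were called. The log2 fold changes (KO over wild type) nevertheless ran from -0.57 to 0.67. Higher in KO were Cps1, Asl, Slc25a15, Arg1 and, barely, Otc, and lower were Nags, Gls2 and Slc25a13, so the genes did not share a direction. Their median was 0.19, against -0.03 over all genes tested, and turned to -0.05 without 1091 (-0.0070 over all genes). At an unadjusted p under 0.05 there was 1 of the 8 genes, Asl, where 15.6% of all genes passed. Without 1091 there were 3, Gls2, Slc25a13 and Slc25a15 but not Asl, where 26.6% of all genes passed. In whole liver, fewer cells of a type and less RNA per cell cannot be told apart.

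Asl, argininosuccinate lyase, was the gene nearest to a call. It had 146.6, 198 and 117 CPM in wild type females 1089, 1090 and 1091, and 215, 282 and 212.5 CPM in KO females 1070, 1104 and 1105. The 3 KO values lay above the 3 wild type values. Its log2 fold change was 0.61 ± 0.26 (SE), with an adjusted p of 0.296 (edgeR). Without wild type female 1091 it was 0.45 ± 0.21 with an adjusted p of 0.191 (edgeR).

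Slc25a15, the ornithine carrier, had 315, 442 and 417 CPM in wild type females and 576, 541 and 483 CPM in KO females, again without overlap. The log2 fold change was 0.43 ± 0.23 (edgeR adjusted p = 0.409), and 0.49 ± 0.20 (adjusted p = 0.139) without 1091. Nags had 46.2, 45.0 and 75.8 CPM in wild type females and 38.4, 33.1 and 42.1 CPM in KO females, and was the 1 gene whose KO values all lay below the wild type values. Its log2 fold change of -0.57 ± 0.27 (adjusted p = 0.353) came largely from mouse 1091, without which it was -0.27 ± 0.19 (adjusted p = 0.410). Between the female groups, non-overlap to the higher side, seen in 2 of 8 members, occurred in 11.4% of all genes tested, and non-overlap to the lower side, seen in 1 of 8, in 11.9%.

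Cps1, which makes carbamoyl phosphate in the first step of the cycle, had the largest positive value, and mouse 1091 set its size. It had 199.6, 234 and 74.2 CPM in wild type females and 227, 251 and 337 CPM in KO females, and the groups overlapped because wild type female 1090 exceeded KO female 1070. The log2 fold change was 0.67 ± 0.38 (edgeR adjusted p = 0.442), and 0.32 ± 0.21 (adjusted p = 0.366) without 1091. Arg1 behaved in the same way, with 1437, 1732 and 747 CPM in wild type females and 1542, 1849 and 1498 CPM in KO females. Its log2 fold change of 0.31 ± 0.32 was 0.04 ± 0.19 without 1091. Otc, with 303, 347 and 189.5 CPM in wild type females and 333, 303 and 250.4 CPM in KO females, went from 0.07 ± 0.27 to -0.13 ± 0.18.

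Gls2, the glutaminase that supplies ammonia to the cycle, went the other way, with 239, 249 and 163 CPM in wild type females and 166, 177.5 and 127 CPM in KO females. Here mouse 1091 was the low wild type value and narrowed the difference. The log2 fold change was -0.48 ± 0.25 (edgeR adjusted p = 0.396) with all mice, and -0.63 ± 0.19 without 1091, just short of the threshold with edgeR (adjusted p = 0.0571) and past it with DESeq2 (adjusted p = 0.0470). DESeq2 with all 6 females gave an adjusted p of 0.462. The shares of all genes called were 9.64% with edgeR and 12.2% with DESeq2 without 1091, and 3.7% with DESeq2 on all 6 females. The aspartate carrier Slc25a13 had 250.5, 330 and 174 CPM in wild type females and 207, 216 and 209 CPM in KO females, with a log2 fold change of -0.27 ± 0.26 (adjusted p = 0.679) and of -0.46 ± 0.18 (adjusted p = 0.127) without 1091.

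Leaving out mouse 1091 thus moved most of these values. Wild type female 1091 had the lowest of the 12 values for Cps1 and Otc and the highest for Nags. On the log2 CPM scale its difference from the mean of the other 11 mice was -1.48 for Cps1, -0.70 for Arg1, -0.57 for Otc, -0.41 for Asl and 0.84 for Nags. For Slc25a15 it was -0.07, inside the range of the other mice. In the same mouse Tat, the tyrosine aminotransferase, was at 37.9 CPM and Sds, serine dehydratase, at 7.64 CPM, where the other 11 mice had 165 to 728 CPM and 65.0 to 314 CPM. Hepatocyte markers summed to 49520 CPM in 1091, within the range of 41190 to 52170 CPM of the other 5 females. Single markers moved in opposite directions, which the sum does not show. Alb (15650 CPM) lay below the other 5 females, as did Tat. Ttr (6734 CPM), Apoa2 (13620 CPM) and Fgb (11310 CPM) lay above them, and Apoa1 lay within their range.

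**Figure D2:**
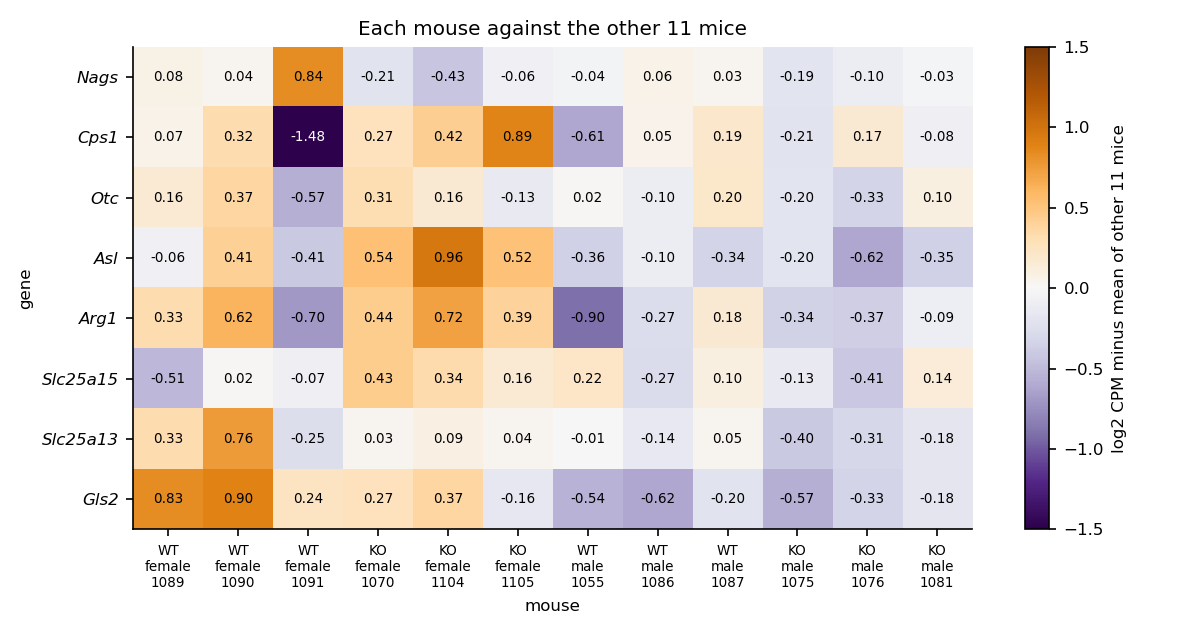
Difference between each mouse and the mean of the other 11 mice on the log2 CPM scale (colour and printed value), for the 8 tested genes (rows) and the 12 mice (columns). Wild type female 1091 holds the lowest value, -1.48 for Cps1, together with low Arg1 and Otc and high Nags.

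In males none of the 8 genes was called either (edgeR, 0% of 8823 genes called), and the values were closer to 0. Log2 fold changes ran from -0.25 to 0.07 with a median of -0.13, against -0.01 over all genes, and no gene had an unadjusted p under 0.05, where 4.05% of all genes did. DESeq2 called 6 genes in males, or 0.037%, none of them among the 9. Slc25a13 was the only one of the 8 without overlap, with 203, 185.5 and 209.5 CPM in wild type males 1055, 1086 and 1087 and 158, 167 and 182 CPM in KO males 1075, 1076 and 1081. Non-overlap to the lower side was found in 4.42% of all genes. Its log2 fold change was -0.25 ± 0.15 (adjusted p = 0.9999), close to the -0.27 of females.

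The other genes overlapped in males. Cps1 had 129, 198 and 217 CPM in wild type and 168, 213 and 182 CPM in KO males (0.03 ± 0.19). Arg1 had 657, 984 and 1305 CPM in wild type and 939, 925 and 1103 CPM in KO males, with a log2 fold change of -0.0025 ± 0.20. Nags, at 42.8, 45.7 and 44.9 CPM in wild type and 38.8, 41.2 and 43.1 CPM in KO males, lay close together in both groups (-0.13 ± 0.18). Asl (-0.12 ± 0.16), Otc (-0.17 ± 0.16), Slc25a15 (-0.14 ± 0.17) and Gls2 (0.07 ± 0.17) completed the set.

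**Figure D3:**
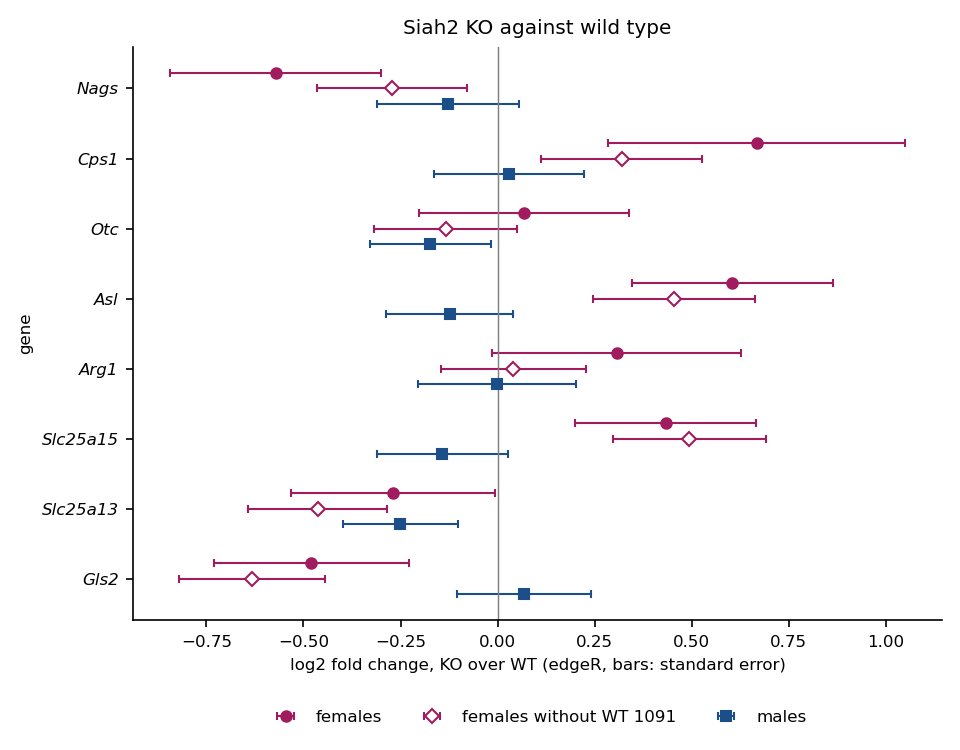
Log2 fold change of Siah2 KO over wild type (x axis) with its standard error (bars) for the 8 tested genes (y axis), from edgeR. Filled circles are females, open diamonds females without wild type mouse 1091, and squares males. Values in females span -0.57 to 0.67 and those in males -0.25 to 0.07, and leaving out 1091 moves Cps1 from 0.67 to 0.32.

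The next test was of the contrast between the sexes, that is, of the KO change of females less that of males. None of the 8 genes was called (edgeR, smallest adjusted p = 0.289), where 0.255% of 9806 genes were. Asl had the largest difference, 0.73 ± 0.31 on the log2 scale (edgeR adjusted p = 0.289), and was the 1 gene at an unadjusted p under 0.05, against 14.1% of all genes. Without 1091 Gls2 (-0.70 ± 0.25) and Slc25a15 (0.64 ± 0.27) differed more than Asl (0.58 ± 0.26), and these 3 genes were at an unadjusted p under 0.05, where 20.1% of all genes were. With all mice Slc25a15 differed by 0.58 ± 0.29 and Gls2 by -0.55 ± 0.30, while Slc25a13 differed by -0.02 ± 0.30. With both sexes combined, none of the 8 genes was called (0.0111% of 9020 genes were), no gene had an unadjusted p under 0.05 (5.65% of all genes did), and the gene nearest to a call was Nags, with a log2 fold change of -0.37 ± 0.18 (edgeR adjusted p = 0.869). Without 1091 Nags was at -0.20 ± 0.13, and Slc25a13, at -0.32 ± 0.17, was nearest (adjusted p = 0.868). The larger values in females were therefore not shown to differ from those in males.

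The sexes themselves were compared within each genotype. Among wild type mice Gls2 was higher in females, 163 to 249 CPM against 94.5 to 123.5 CPM in males, with no overlap. The log2 fold change (female over male) was 1.06 ± 0.25, and the adjusted p was 0.0728 with edgeR and 0.0124 with DESeq2, so the call depended on the tool. Without mouse 1091 the value was 1.21 ± 0.18 and both tools called it, with an adjusted p of 0.0035 (edgeR) and 1.26e-05 (DESeq2). With edgeR on all mice, 1.39% of 9335 genes were called, and DESeq2 called 3.74% of 9037 genes. Without 1091 the shares were 7.73% and 10.4%. Gls2 was the 1 member at an unadjusted p under 0.05, where 15.2% of all genes were, and 11.5% of all genes lay without overlap to the higher side. Without 1091 there were 3 such members, Gls2, Arg1 and Slc25a13, against 24.7% of all genes.

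None of the other 7 genes was called between wild type females and males, and none was without overlap. For Arg1 the difference was 0.43 ± 0.35, or 0.69 ± 0.25 without 1091 (edgeR adjusted p = 0.118). Slc25a13 gave 0.36 ± 0.26, or 0.55 ± 0.18 without 1091 (adjusted p = 0.0937). Otc, which is X-linked, gave 0.02 ± 0.26, with 189.5 to 347 CPM in females and 255 to 310 CPM in males.

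Among KO mice, a comparison added after the data had been seen, 2 of the 8 genes were higher in females. Asl had 102 to 134 CPM in KO males and 212.5 to 282 CPM in KO females, a log2 fold change of 0.99 ± 0.17 (edgeR adjusted p = 0.0014). Arg1 had 925 to 1103 CPM in KO males and 1498 to 1849 CPM in KO females, 0.73 ± 0.16 (adjusted p = 0.0083). In this comparison 11.5% of 9102 genes were called, so calls were common. Arg1 was not called in a single fit of all 4 groups (adjusted p = 0.191) or without KO female 1104, and Asl was called in both.

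The 6 genes Asl, Arg1, Cps1, Gls2, Slc25a15 and Slc25a13 did not overlap between KO females and KO males and were higher in females, where 14.7% of all genes did so. Besides the called genes, Cps1 gave 0.53 ± 0.17 (adjusted p = 0.0618), Gls2 0.49 ± 0.17 (0.0738), Slc25a15 0.40 ± 0.16 (0.127) and Slc25a13 0.32 ± 0.14 (0.163), and the median of the 8 genes was 0.45 against -0.0016 over all genes. Otc (0.24 ± 0.16) and Nags (-0.12 ± 0.18) overlapped. The sex difference of Gls2 was 0.49 in KO and 1.06 in wild type mice, and that of Asl 0.99 and 0.28. The tests of these differences of differences are those given above for the contrast between the sexes, and neither passed.

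**Figure D4:**
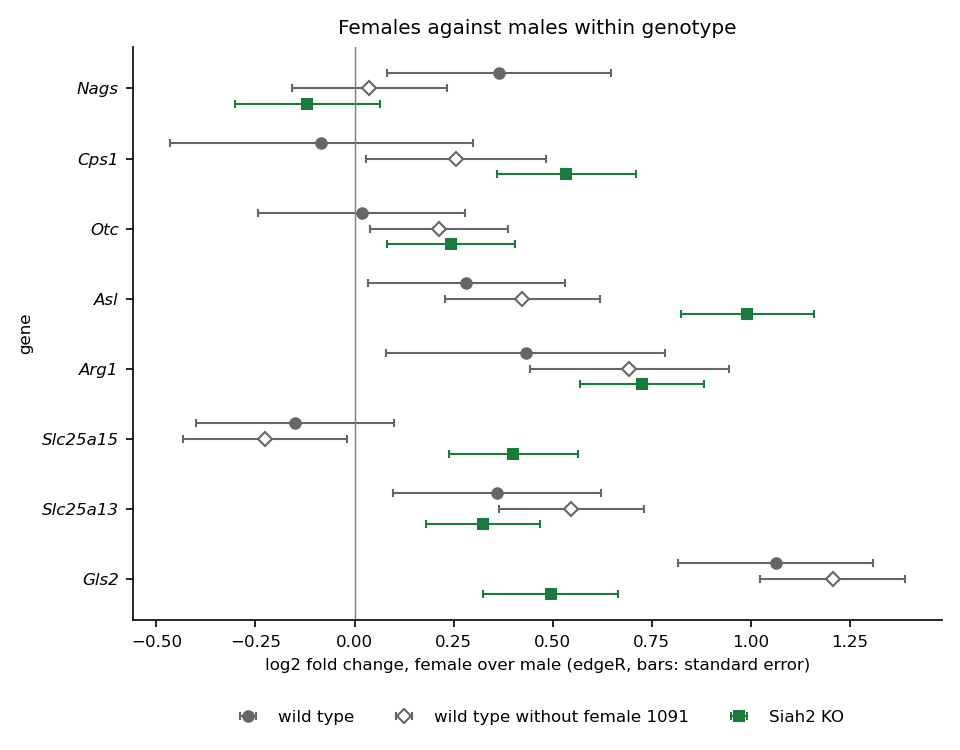
Log2 fold change of females over males (x axis) with its standard error (bars) for the 8 tested genes (y axis), from edgeR. Circles are wild type, open diamonds wild type without female 1091, and squares Siah2 KO. Gls2 stands out in wild type at 1.06, and Asl in Siah2 KO at 0.99.

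Some markers of other cells and of liver zones differed between these groups. The 8 pericentral markers, among them Cyp2e1 and Glul, summed to 4582 to 5862 CPM in wild type females and 9273 to 10310 CPM in KO females, against 5748 to 7769 and 6273 to 8694 CPM in the male groups. Cyp2e1 held most of this sum, with means of 3542 CPM in wild type and 7145 CPM in KO females. The median log2 fold change of the tested pericentral genes in females was 0.47, and 0.24 without 1091. Lgr5 went the other way (-0.68 ± 0.62, and -1.13 ± 0.43 without 1091), as did Rhbg, tested only without 1091 (-0.26 ± 0.56). Without 1091 Cyp1a2 was at 0.09 and Axin2 at 0.04. The 6 periportal markers summed to 3083 to 9446 CPM in wild type and 10220 to 18050 CPM in KO females, mostly through Pck1, while the median log2 fold change of the 6 genes was -0.13. At an unadjusted p under 0.05 Pck1 (1.59 ± 0.51) and Sds were higher and Cdh1 (-0.93 ± 0.37) and Hsd17b13 (-0.65 ± 0.26) lower. With all mice edgeR called no gene of either list in females, where 0% of all genes were called. Without 1091 it called 2 of 6 periportal genes (Sds and Hsd17b13) and 2 of 8 pericentral genes (Cyp2e1 and Slc1a2). In that fit 9.64% of all genes were called. The part of zonation in the values of Asl, Slc25a15 and Gls2 was not tested.

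For Kupffer cell markers the median log2 difference of females over males was 1.42 in wild type mice (2 of 6 tested genes called) and 1.65 in KO mice (4 of 5 called). Of all genes, edgeR called 1.39% between wild type and 11.5% between KO females and males. Without 1091 the wild type median was 1.54, again with 2 of 6 called, where 7.73% of all genes were. In wild type mice Marco went the other way (-0.89 ± 0.92, edgeR). The sums overlapped there, since male 1086 had 523 CPM and the females 361 to 487 CPM. The erythroid gene Alas2 was lower in females, at 8.47 to 25.2 CPM against 83.95 to 154 CPM in males, and was called in both genotypes (-2.02 and -3.15 on the log2 scale, edgeR). Hepatocyte markers differed by a median of 0.11 (0.0032 without 1091) between wild type and 0.17 between KO females and males. Their sums were higher in females without overlap. They were 47240 to 51880 against 37330 to 43560 CPM in wild type mice, and 41190 to 52170 against 33880 to 38500 CPM in KO mice. Alb was called between KO females and males (0.60 ± 0.17, edgeR adjusted p = 0.0383), while Apoa1 (-0.39 ± 0.19) and Tat (-0.11 ± 0.25) were lower in KO females. Between wild type females and males Alb was at 0.62 ± 0.32 (edgeR adjusted p = 0.403). Without 1091 it was called there too (0.81 ± 0.19, edgeR adjusted p = 0.0301), while Apoa1 (-0.18), Apoa2 (-0.58) and Tat (-0.65) were lower in wild type females. Fat markers stayed at or under 26.4 CPM and pancreatic acinar markers at or under 57.4 CPM in sum. The part of these cells in the sex differences of Gls2, Asl and Arg1 was not tested.

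Around the cycle, 54 further genes were counted in 5 lists, of which 41 were tested in females, and none was called by edgeR there. At an unadjusted p under 0.05 there were 10, of which 8 were higher and 2 lower in KO females, and 2 in males. The corresponding backgrounds were 7.3% and 8.31% of all genes in females and, for both directions in males, 4.05%. Without wild type female 1091, edgeR called 9 of 43 genes, Slc1a2, Gpt, Gpt2, Sds, Gldc, Slc25a22, Mdh2, Agmat and Cebpb, where 9.64% of all genes were called.

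Genes that feed nitrogen into the cycle formed the longest of the 5 lists. Of 15 tested in females, 4 were higher and 1 lower at an unadjusted p under 0.05, with a median log2 fold change of 0.54. Without 1091 edgeR called 6 of the 15, where 9.64% of all genes were called. Sds, which releases ammonia from serine, had 78.0, 118 and 7.64 CPM in wild type females and 245, 243 and 314 CPM in KO females, 1.97 ± 0.67 with all mice (edgeR adjusted p = 0.201) and 1.45 ± 0.23 without 1091 (adjusted p = 0.0055). Gpt2, the mitochondrial alanine aminotransferase, had 506, 984 and 892 CPM in wild type and 1451, 2088 and 1588 CPM in KO females, 1.09 ± 0.31 (adjusted p = 0.138; 0.0255 without 1091). With all mice DESeq2 called 2 of the 40 genes it tested in the 5 lists, Gpt2 and Mdh2, where 3.7% of all genes were called. Both genes separated the female groups, as 11.4% of all genes did to the higher and 11.9% to the lower side.

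Gldc, of the glycine cleavage system, gave 0.79 ± 0.27 in females (edgeR adjusted p = 0.203) and 1.08 ± 0.21 without 1091 (adjusted p = 0.0115). The malate dehydrogenases, which handle the carbon that leaves the cycle as fumarate, went apart, with Mdh1 of the cytosol at 0.54 ± 0.23 and Mdh2 of the mitochondrion at -0.95 ± 0.24 (adjusted p = 0.118; 0.0070 without 1091). Glutamate dehydrogenase Glud1, the main source of free ammonia from glutamate, was at -0.46 ± 0.27 (-0.22 without 1091) and overlapped between the groups.

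Among 7 tested genes of glutamine and ammonia handling, the neutral amino acid transporter Slc7a8 had 9.39, 6.90 and 6.37 CPM in wild type and 4.87, 1.84 and 2.41 CPM in KO females (-1.24 ± 0.46, edgeR adjusted p = 0.224). Glul, glutamine synthetase, which takes up the ammonia that escapes the cycle around the central vein, had 497, 552 and 266 CPM in wild type and 685, 672 and 719 CPM in KO females, 0.65 ± 0.29 (adjusted p = 0.321), or 0.40 ± 0.17 without 1091 (adjusted p = 0.157). Glul was higher in KO females without overlap, as were 11.4% of all genes, and it belongs to the pericentral markers above. Of the 6 tested genes of ornithine and arginine use, Oat (ornithine aminotransferase, 0.71 ± 0.30) and Odc1 (ornithine decarboxylase, 0.89 ± 0.36) were at an unadjusted p under 0.05, both higher in KO females.

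Sirt5, a deacylase known to act on Cps1, was at 0.90 ± 0.38 in females, the 1 of 4 tested genes of cofactor supply and urea export at an unadjusted p under 0.05. Without 1091 it was at 0.82 ± 0.38, and 0 of the 4 genes were (edgeR). Among 9 regulators the 1 such gene was Cebpb, a transcription factor known to act on urea cycle genes, with 92.4, 209 and 12.7 CPM in wild type and 245, 354 and 395 CPM in KO females (1.65 ± 0.70; 1.13 ± 0.32 without 1091, edgeR adjusted p = 0.0486). In males the 2 genes were Slc7a2, an arginine transporter, at 0.48 ± 0.18 and the coactivator Ppargc1a at -0.67 ± 0.20, both with an adjusted p of 0.9999 (edgeR).

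**Figure D5:**
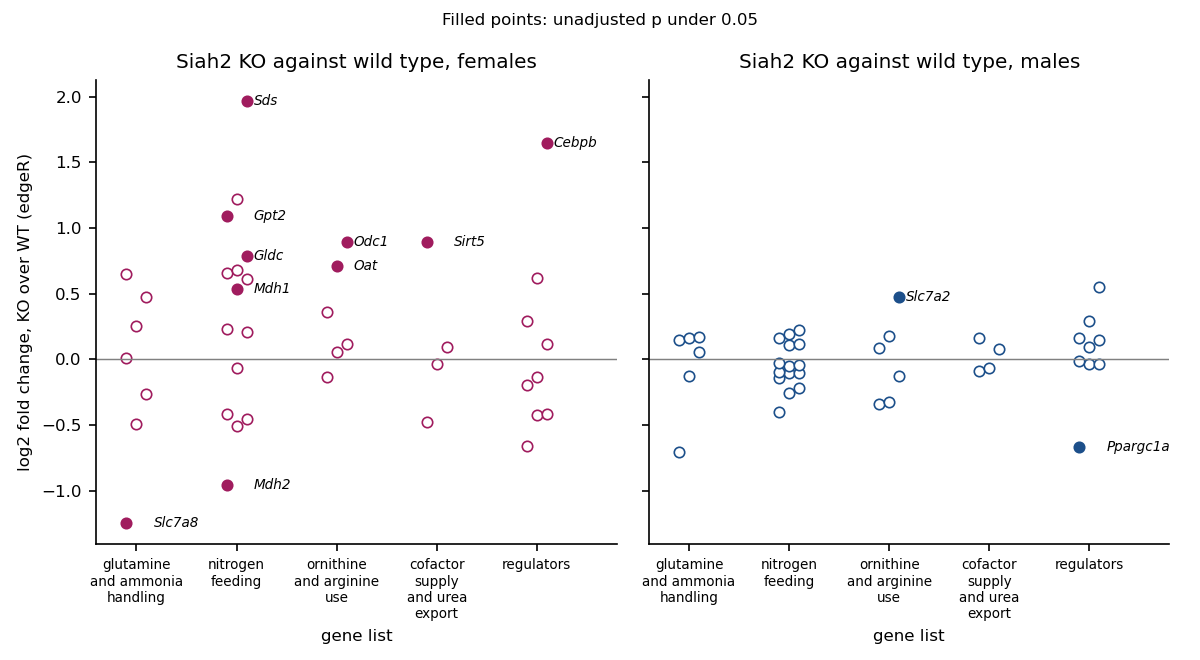
Log2 fold change of Siah2 KO over wild type (y axis, edgeR) for the tested genes of 5 lists around the urea cycle (x axis), in females (left) and males (right). Filled and named points have an unadjusted p under 0.05, and none has an adjusted p under 0.05. In females 10 of 41 genes are filled, from Slc7a8 at -1.24 to Sds at 1.97, and in males 2 of 40.

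Between KO females and KO males, 10 of 41 tested genes of these lists were called (edgeR), against 11.5% of all genes. Higher in females were the cytosolic aspartate aminotransferase Got1 (1.30 ± 0.19), the aspartate carrier Slc25a12 (1.32 ± 0.33), Gpt (0.87 ± 0.18), Hal (0.96 ± 0.18), Mdh1 (0.90 ± 0.16), Odc1 (1.15 ± 0.30), Prodh (0.70 ± 0.20) and Ppargc1a (0.85 ± 0.20). Lower were the glutamine transporter Slc38a2 (-0.63 ± 0.17) and Hnf4a (-0.63 ± 0.17). Between wild type females and males none of 41 was called (edgeR), and 3 were at an unadjusted p under 0.05, where 15.2% of all genes were, namely Slc7a8 (1.92 ± 0.45), Mdh2 (0.68 ± 0.23) and Sirt5 (-0.94 ± 0.30). Without 1091 edgeR called 4 of 41, where it called 7.73% of all genes. These were Slc7a8 (2.00 ± 0.49), Mdh2 (0.79 ± 0.17) and the glutamate carrier Slc25a22 (0.96 ± 0.21), higher in females, and Gldc (-0.94 ± 0.21), lower in females.

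The last comparison was of profiles from mouse to mouse. Wild type female 1091 was included, at -1.48 for Cps1 on the log2 scale against the mean of the other 11 mice. No profile was compared without it. For each of the 8 genes the profile of log2 CPM over the 12 mice was centred on its mean. It was compared with those of 6705 genes by the root mean square difference. In no case was the nearest gene another of the 8. Among so many genes this was likely in advance, and it does not show whether the members share a profile. Nearest to Cps1 were Rnf13 (0.181), Scrn3 (0.1975) and Crnkl1 (0.200), and the nearest gene was for Otc Amdhd1 (0.13), for Asl Mpc2 (0.18), for Arg1 Tm2d2 (0.17), for Nags Mkln1 (0.10), for Gls2 Klhdc2 (0.16), for Slc25a15 Mta2 (0.13) and for Slc25a13 Hsd11b1 (0.15). Closest within the set were Otc and Slc25a13 (0.19), followed by Otc and Slc25a15 (0.27) and by Asl and Arg1 (0.28). The root mean square of a gene about its own mean was 0.24 for Otc, 0.26 for Slc25a15 and 0.27 for Slc25a13. It was 0.43 for Asl and 0.46 for Arg1. Otc and Slc25a15 thus lay no closer to each other than each to its own mean. Among the 6705 genes the nearest member ranked 26 for Arg1, 33 for Asl, 33 for Slc25a13 and 43 for Otc. It ranked 104 for Gls2, 183 for Cps1, 365 for Slc25a15 and 2688 for Nags.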

How the data were processed

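Liver RNA of 12 mice was profiled with the Lexogen QuantSeq 3′ kit. Trimming, mapping and counting were done by the authors with Illumina's BaseSpace, and raw counts per gene were deposited in 1 table per sex. The submitters' processing notes name STAR, DESeq and mm10 without versions. Groups follow the sample titles. The members and gene lists were chosen with earlier results of these data known.

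Counts were tested with edgeR 4.0.16 in R 4.3.3 (filterByExpr, TMM, quasi-likelihood F test, two-sided), p-values were adjusted over all genes tested by the Benjamini-Hochberg method, and genes under 0.05 were called. Only the groups compared entered a fit, except that the contrast between the sexes used all 12 mice. Alternatives were DESeq2 1.42.0, limma 3.58.1 (voom with and without quality weights), other scalings and filters, 1 fit of 4 groups, a sex term and leaving out single mice. CPM use TMM-scaled totals, log2 CPM a prior count of 3, and ± after a log2 fold change is the standard error implied by the test. Scripts were tested on simulated data. Pathway genes were named where their unadjusted p was under 0.05 in a comparison described, and others after their values were seen. Profiles were compared over genes averaging at least 10 CPM. Transcript ends were matched to NCBIM37 with minimap2 2.31. Figures used matplotlib 3.10.9 in Python 3.11.15. At the lowest total, 1 read is worth 0.764 CPM. Limits set by counts cover counting error only.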

Additional observations from a re-analysis of the deposited data

How the results depend on the processing

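Over 824 alternative values of the 48 log2 fold changes, 774 kept direction and side of the threshold. None of the 8 genes was called in KO against wild type males, with both sexes combined or for the contrast between the sexes under any alternative run. In females 1 gene, Gls2, was called by DESeq2 without wild type female 1091 (added after the data were seen). Between wild type females and males 1 gene, again Gls2, was called by DESeq2, by voom with quality weights, without the filter on low counts, in 1 fit of 4 groups and by DESeq2 without 1091. Leaving out 1 mouse at a time gave 0 to 1 called members there and 1 to 3 between KO females and KO males, where 2 were called with all mice, 1 in 1 fit of 4 groups, and 3 with quality weights and with at least 10 counts in every library.

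Calls over all genes moved more. In females edgeR called 0 genes, and 1478 had an unadjusted p under 0.05. DESeq2 called 303, the fit without the filter 484, 1 fit of 4 groups 427, quality weights 1058, edgeR without 1091 936 and DESeq2 without 1091 828. In males the count was 0 with edgeR (357 at an unadjusted p under 0.05) and reached 29 without the filter, and with both sexes combined it was 1 and ranged from 0 to 1. For the contrast between the sexes it was 25 and ranged from 0 to 558, between wild type females and males 130 and from 43 to 802, and between KO females and KO males 1044 and from 352 to 1261.

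The values that changed sign were close to 0 as reported, and the cause was not tested. For Otc in females they were -0.0677 with quality weights and -0.12 with DESeq2 without 1091, with -0.13 to 0.25 when single mice were left out. For Arg1 in males they were 0.0101 with DESeq2, 0.0323 with voom, 0.0261 with quality weights, 0.0039 with RLE, 0.00075 with totals alone, 0.0049 without Rn45s, 0.0236 without the filter, 0.0058 with at least 10 counts and 0.0093 in 1 fit of 4 groups, with -0.21 to 0.26 when single mice were left out. Leaving out single mice gave -0.15 to 0.19 for Cps1 and -0.0071 to 0.21 for Gls2 in males, and -0.14 to 0.0149 for Otc with both sexes combined. For Slc25a13 in the contrast between the sexes voom gave 0.0339 and single mice -0.21 to 0.20. Between wild type females and males Otc was at -0.0221 with DESeq2, -0.0144 with voom, -0.0121 with RLE and -0.0068 in 1 fit of 4 groups (-0.15 to 0.21 without single mice), and Cps1 at 0.17 with quality weights and 0.23 with DESeq2 without 1091 (-0.38 to 0.26 without single mice).

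No paired analysis was possible because mouse numbers are not shared between groups. Ass1 was below edgeR's filter on low counts.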
